A study of Arabidopsis thaliana with 6 samples.

Results

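Chromosome 1 of Arabidopsis thaliana carries 1163 transcription units on this custom Agilent array, each a candidate long intergenic noncoding RNA (lincRNA) named with the prefix AT1TU and a number. The 918 units examined here start more than 3 Mb from the 15 Mb point of the chromosome, which was set as its centre, and so lie in the chromosome arms, 419 in the left arm and 499 in the right arm. They are measured by 2702 of the array's 15013 probes, with 867 units on 3 probes, 50 on 2 and 1 on 1. The whole array holds 4499 such units from 5 chromosomes under 5154 transcript names. The scanner files give a start for 211 of the 918 units. The other 707 were placed by their unit number between the nearest units with a start, since starts and unit numbers run in the same order on this chromosome. No source used here gives the genome build of these starts, and the word lincRNA rests on the series title and the unit names.

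RNA came from inflorescences of 4-week-old plants, with open flowers, buds and some very young siliques. The groups were 3 samples of an rdr2 mutant and 3 samples of the wild type (WT), both in the Col-0 ecotype and described as biological replicates. The growth and description fields name the allele rdr2-1 for all mutant samples, whereas a genotype field gives rdr2-1, rdr2-2 and rdr2-3 to replicates 1, 2 and 3, so the allele of each sample is uncertain and the mutant samples were kept together as the titles have them. Labelled Cy3 RNA was hybridised in a single colour.

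RDR2, RNA-DEPENDENT RNA POLYMERASE 2, copies transcripts of RNA polymerase IV into double-stranded RNA. DCL3 cuts this RNA into short interfering RNAs, which guide DNA methylation and silencing of transposons and repeats, the process called RNA-directed DNA methylation. Repeats are dense around the centromeres of Arabidopsis, while the arms are rich in genes and carry shorter, scattered transposons. Intergenic noncoding RNAs are commonly scarce transcripts. The question posed by the series title is which of them depend on RDR2.

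The arrays differed in brightness, and the part of brightness in the counts below was not tested. Well-above-background probes made up 17.6%, 17.8% and 24.8% of all probes on rdr2 arrays 1 to 3 and 37.9%, 37.4% and 24.1% on WT arrays 1 to 3. In each group replicates 1 and 2 shared a slide and replicate 3 was on a slide of its own, so no slide held both groups. The RDR2 transcript (AT4G11130) checked the labels: its scaled signal was 61.4, 62.0 and 66.4 on the rdr2 arrays, against 395, 381 and 454 on the WT arrays, 6.47-fold lower (log2 fold change -2.69, SE 0.13, adjusted p = 0.000168), and it was called under each of the 19 alternative fits. Scaled signal here is a probe's intensity relative to a bright reference percentile of its own array, which is set to 100. Of 17 listed marker genes of floral organs, anthers, pollen, leaves and roots, 0 were on the array, so the organ label could not be checked. All 4 listed seed genes were on it. Their summed scaled signal was 41.4 to 45.8 on rdr2 arrays and 105 to 117 on WT arrays, with FUS3 and EM1 lower in rdr2 (log2 fold changes -1.79 and -0.64, adjusted p = 0.000938 and 0.0246) and neither LEC1 (-0.08, adjusted p = 0.808) nor ABI3 (-0.84, adjusted p = 0.272) past the threshold. Both are regulators of seed maturation, as is FUS3, and EM1 encodes a seed protein. The part of seed content in the unit values below was not tested. In whole inflorescences, fewer cells of a type and less RNA per cell cannot be told apart.

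Most arm units were dim. At least 1 probe was well above background for 167, 177 and 305 of the 918 units on rdr2 arrays 1 to 3, against 562, 550 and 298 units on WT arrays 1 to 3. The groups overlapped, because rdr2 replicate 3 detected more units than WT replicate 3. The difference of the means (216 and 470 units) had an exact two-sided permutation p of 0.2, where 0.1 is the smallest p that 3 against 3 can give. That permutation treats the 6 arrays as independent. Replicates 1 and 2 of each group shared a slide and gave similar counts, so neither p takes the slides into account. On all 6 arrays 139 units were detected, and on none of them 255. All 3 rdr2 arrays and no WT array detected 0 units, while all 3 WT arrays and no rdr2 array detected 29. The slide shared by WT replicates 1 and 2 alone accounted for 142 units that no other array detected. The detected share of arm units moved with that of all probes on the same array, and the part of array brightness in it was not tested.

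**Figure D1:**
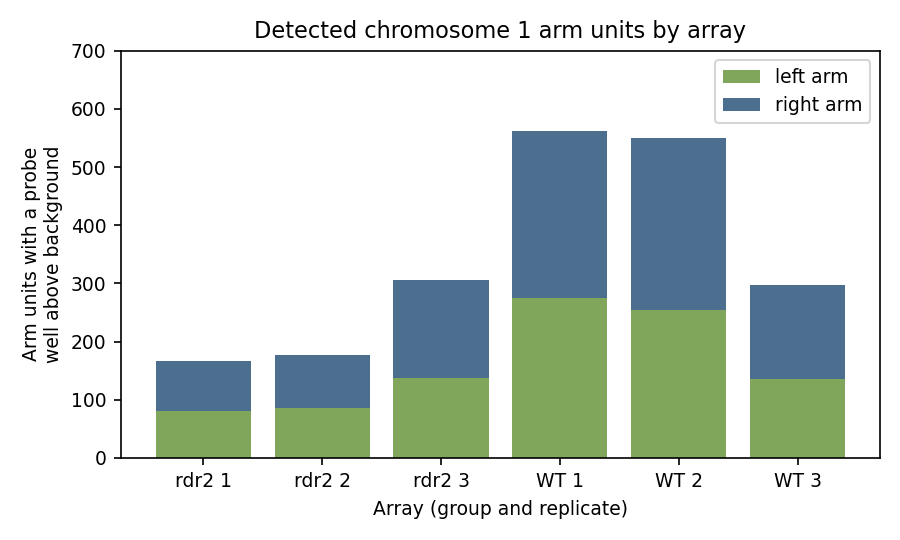
Bars give the number of the 918 chromosome 1 arm units with at least 1 probe well above background on each array, split into left and right arm; rdr2 arrays stand left and WT arrays right. The 2 WT arrays of a shared slide detected 562 and 550 units, while WT replicate 3, with 298, stood beside rdr2 replicate 3, with 305.

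Testing needed a well-above-background signal on all 3 arrays of either group, which 377 probes of 260 arm units had. The test was limma across all 3345 such probes of the array with Benjamini-Hochberg adjustment, and a unit was counted once, by its tested probe with the smallest p, at an adjusted p of 0.05. By that count 9 of the 260 tested arm units rose in rdr2 (3.46%) and 26 fell (10%). Over all 1862 tested transcripts of the array, 5.85% were called higher and 10.7% lower, and over its 1327 tested lincRNA units 5.88% and 9.12%. Both shares of the arm units lay near or below this background. By probe, 15 arm probes (3.98%) were called higher and 30 (7.96%) lower, against 5.11% and 8.49% of all tested probes. Groups did not overlap in 25 units with higher and 63 units with lower rdr2 signals, 9.62% and 24.2% of those tested, where 13.3% and 29.8% of all tested transcripts behaved so. The median arm probe had a log2 fold change of -0.35 and the median of all tested probes was -0.26. The arm median moved with the processing. It was 0.27 with each array's 75th percentile taken over all its probes, called the wider 75th percentile below. It was 0.02 with quantile normalisation or in the deposited table. With normexp, a background correction that adds 50 to each intensity, it was -0.01. Under the main scaling, but over only the probes above background on all 6 arrays, it was -0.05. The cause was not tested.

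These counts moved when single arrays were left out. Without rdr2 replicate 1 there were 2 units higher and 8 lower, and without rdr2 replicate 2 there were 3 and 8. Without rdr2 replicate 3 there were 22 higher and 37 lower. Leaving out WT replicate 1 gave 3 and 3, and leaving out WT replicate 2 gave 2 and 4. Without WT replicate 3 there were 11 higher and 102 lower. Leaving out a replicate 3 left its group with the arrays of a shared slide alone, which resembled each other more than replicate 3. With slide as a random block 1 unit was higher and 2 were lower.

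Rises were more frequent in the left arm by count. There, 8 of 120 tested units were called higher (6.67%) and 9 lower (7.5%), while in the right arm 1 of 140 was called higher (0.714%) and 17 lower (12.1%). Over all tested transcripts of the array the shares were 5.85% higher and 10.7% lower. The difference between the arms was not tested. The median tested probe stood at -0.31 on the log2 scale in the left arm and at -0.38 in the right arm. In the 79 tested units within 3 Mb of the 15 Mb point, 8 were called higher and 8 lower (10.1% each), and the median probe stood at -0.39.

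Called units were spread along both arms. Going outward from the centre, the left arm held 3 higher and 2 lower units between 3 and 6 Mb from it, 3 and 3 between 6 and 9 Mb, 2 and 1 between 9 and 12 Mb, and 0 and 3 beyond. In the right arm the counts were 0 higher and 3 lower between 3 and 6 Mb, 1 and 3 between 6 and 9 Mb, 0 and 3 between 9 and 12 Mb, and 0 and 8 beyond 12 Mb. That outermost stretch of the right arm also had the most tested units, 48, against 23 to 37 in each of the other 7 stretches. Tested units numbered 30, 32, 25 and 33 going outward in the left arm and 23, 37, 32 and 48 in the right arm. Array-wide, 5.85% of tested transcripts were called higher and 10.7% lower. Differences between stretches were not tested. The outermost called unit of the left arm was AT1TU001310 and that of the right arm AT1TU102500, which starts at 30418504, the last start given for the chromosome.

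**Figure D2:**
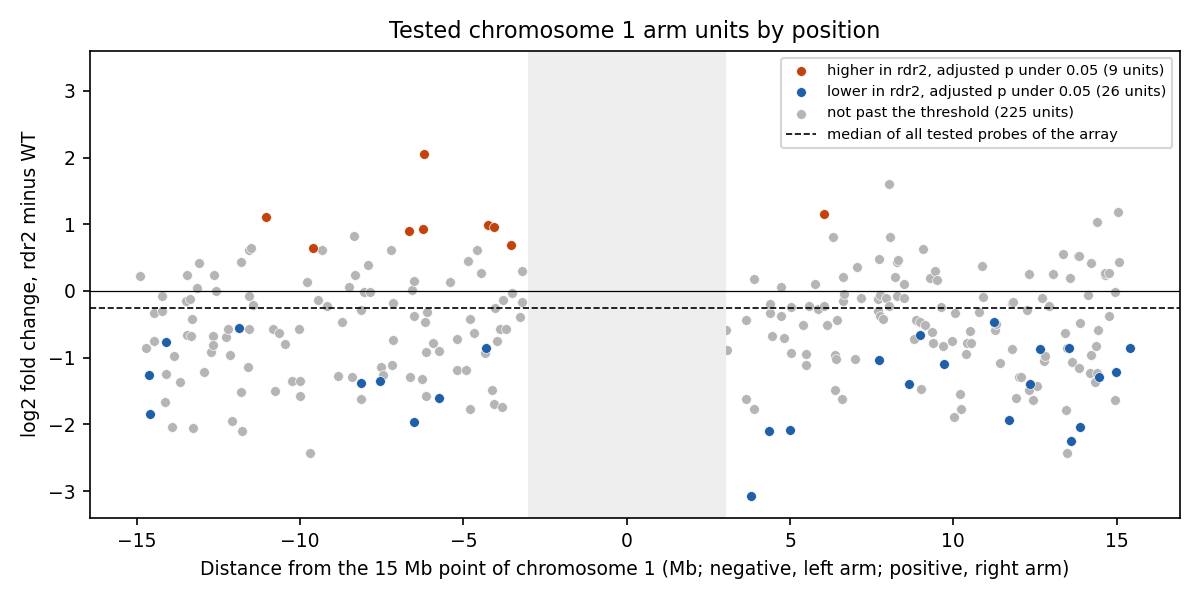
Each point is 1 of the 260 tested arm units, with its distance from the 15 Mb point of chromosome 1 in Mb on the x axis and the log2 fold change (rdr2 minus WT) of its probe with the smallest p on the y axis; the grey band is the 3 Mb on either side that is not part of the arms, and the dashed line marks -0.26, the median of all tested probes. Of the 9 units higher in rdr2, 8 lie in the left arm, and the 26 lower ones lie in both.

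The largest rise was that of AT1TU030460, in the left arm between units starting at 8756252 and 8852718. Its scaled signal was 94.0, 84.0 and 91.4 on rdr2 arrays, against 22.6, 23.8 and 18.8 on WT arrays. Every rdr2 array lay far above every WT array. The unit was 4.15-fold higher (log2 fold change 2.05, SE 0.14, adjusted p = 0.000811), or 2.31 on the log2 scale relative to the median of all tested probes. Another probe gave 25.1, 22.3 and 18.6 on rdr2 arrays, against 6.88, 5.87 and 4.31 on WT arrays (log2 fold change 1.97, adjusted p = 0.00526). The remaining probe was above background on no array. The call was kept in 17 of 19 alternative fits; it was lost with the arrays of a slide averaged (adjusted p = 0.0568) and without rdr2 replicates 1 and 2 (0.0557), and with normexp the log2 fold change was 1.19. A fit that took slide as a random block called no other arm unit higher (adjusted p = 0.00501 for AT1TU030460).

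AT1TU030410, the unit before it in the array's order, also rose. It starts at 8756252, and its scaled signal was 266, 286 and 182 on rdr2 arrays, against 107, 135 and 141 on WT arrays. The groups did not overlap, with rdr2 replicate 3 the lowest of its group. Its log2 fold change was 0.92 (SE 0.22, adjusted p = 0.0499), and its other probes gave 1.05 (adjusted p = 0.0862) and 0.71 (0.0584). These were the only called arm units next to each other in the array's order.

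AT1TU028770 rose on all 3 of its probes. The unit lies in the left arm between units starting at 8307274 and 8356999. Signals were 845, 849 and 927 on rdr2 arrays, against 472, 460 and 479 on WT arrays, at the probe with the smallest p. The spread within each group was small beside the gap between them, and the unit was 1.86-fold higher (log2 fold change 0.89, SE 0.11, adjusted p = 0.00716). The other probes gave log2 fold changes of 0.96 and 0.91 (adjusted p = 0.00872 and 0.00799). The unit kept its call in 12 of 19 alternative fits, among them those without each single array. The call was lost with random slide effects (adjusted p = 0.0510), replicate as a block (0.0679), the wider 75th percentile (0.0959) and arrays of a slide averaged (0.194). It was also lost with probes above background on at least 1 array (0.118), with no filter (0.223) and without rdr2 replicates 1 and 2 (log2 fold change 0.98).

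AT1TU069940 was the right arm's 1 rise. Between units starting at 21040021 and 21326512, it gave 43.7, 41.1 and 28.7 on rdr2 arrays, against 17.1, 15.1 and 18.0 on WT arrays, 2.23-fold higher (log2 fold change 1.16, SE 0.20, adjusted p = 0.0196). A further probe was called (0.83, adjusted p = 0.0378) and the third was not (0.43, adjusted p = 0.0881). All 3 probes thus had the same sign.

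AT1TU037940 and AT1TU040060 were rises resting on 1 called probe each. AT1TU037940, between units starting at 10913642 and 11033638, had signals of 618, 820 and 675 on rdr2 arrays, against 323, 343 and 415 on WT arrays (log2 fold change 0.97, SE 0.17, adjusted p = 0.0213). Its other probes were too dim to test. AT1TU040060, between units starting at 11444803 and 11485182, had 514, 582 and 471 on rdr2 arrays, against 280, 362 and 331 on WT arrays (log2 fold change 0.69, SE 0.16, adjusted p = 0.0415). Its other probes pointed down, with log2 fold changes of -0.47 and -0.31 (adjusted p = 0.449 and 0.220), so the unit's direction depended on the probe.

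The 3 remaining rises were AT1TU013690, AT1TU037270 and AT1TU018690, all in the left arm. AT1TU013690, which starts at 3960943, had 7.78, 6.80 and 10.05 on rdr2 arrays, against 3.76, 3.78 and 3.73 on WT arrays (log2 fold change 1.11, SE 0.17, adjusted p = 0.0143). A further probe was called at 0.93 (adjusted p = 0.0228) and another gave -0.53 (adjusted p = 0.428). AT1TU037270 had 5.29, 5.90 and 4.05 on rdr2 arrays, against 2.45, 2.23 and 2.94 on WT arrays (log2 fold change 0.99, adjusted p = 0.0291), with a further probe called. AT1TU018690 had 23.9, 25.1 and 24.9 on rdr2 arrays, against 14.2, 17.4 and 15.7 on WT arrays, at 0.65 (adjusted p = 0.0281), and its other probes could not be tested. In none of these 3 units did the groups overlap.

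Most rises lost their calls when replicate 1 or 2 of either group was left out. The part of the smaller number of arrays in this was not tested. Without rdr2 replicate 1, WT replicate 1 or WT replicate 2, AT1TU030460 and AT1TU028770 were the only rises of the 9 to keep their calls, and without rdr2 replicate 2 AT1TU013690 kept it as well. Adjusted p of the lost calls was 0.0582 to 0.160 without rdr2 replicate 1, 0.0732 to 0.154 without rdr2 replicate 2, 0.0654 to 0.160 without WT replicate 1 and 0.0706 to 0.148 without WT replicate 2. All 9 kept their calls without replicate 3 of either group, where only the arrays of a shared slide remained in that group. Calls were kept by 3 of the 9 rises when scaled to the wider 75th percentile, by 4 with quantile normalisation, by 4 in the deposited table and by 6 with normexp. With slide as a random block the 8 lost calls had adjusted p of 0.0510 to 0.366.

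**Figure D3:**
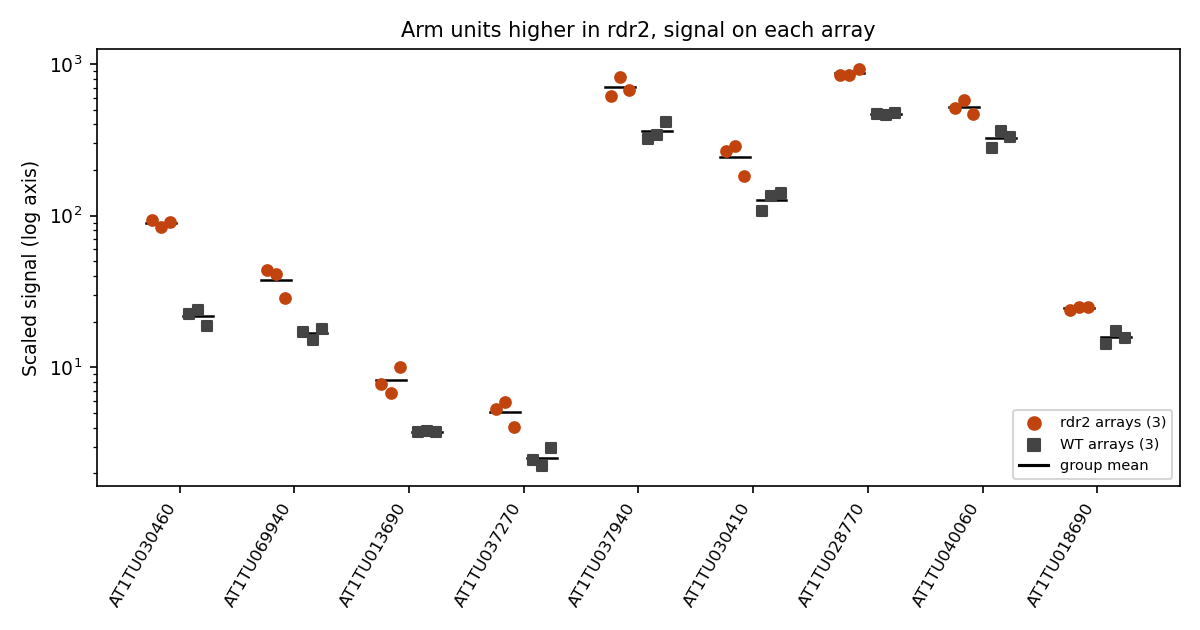
Scaled signal (log axis) of the 9 arm units called higher in rdr2, 1 probe a unit; round points on the left of each unit are the 3 rdr2 arrays, squares on the right the 3 WT arrays, and lines the group means. All rdr2 points lie above all WT points in each unit, from 4.15-fold higher in AT1TU030460 to 1.57-fold higher in AT1TU018690.

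Falls came mostly from probes near background in the mutant. Of the 26 units that fell, 8 were called on a probe above background on all 6 arrays, 6 on a probe above it on 1 or 2 rdr2 arrays, and 12 on a probe above it on no rdr2 array. All 9 rises were called on probes above background on all 6 arrays. Among the 121 arm units whose probe was above background on all 6 arrays, the counts were therefore 9 higher and 8 lower, with a median log2 fold change of -0.09. In that bright class, 10.1% of all transcripts of the array were called lower and 7.88% higher. The 31 arm units whose probe was above background on no rdr2 array and on all 3 WT arrays held 12 falls, or 38.7%, where 26.7% of all such transcripts on the array fell. Because this class is defined by low rdr2 signals, its count is a description. All falls on probes not above background on every rdr2 array passed the filter through their WT signals alone. Their adjusted p, given below, thus describes values that the filter helped to choose and that lie partly at background in rdr2.

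AT1TU082500, in the right arm with a start at 24721320, was the largest fall measured on all 6 arrays. Its scaled signal was 4.72, 5.39 and 4.11 on rdr2 arrays, against 10.3, 9.08 and 10.9 on WT arrays. The groups were well apart, and the unit was 2.14-fold lower (log2 fold change -1.10, SE 0.15, adjusted p = 0.0104). Its other tested probe, above background on no rdr2 array, was also called (adjusted p = 0.0385). The unit kept its call in 7 of 19 alternative fits. It lost it without rdr2 replicate 1 or WT replicate 1, and the log2 fold change shrank to -0.64 with quantile normalisation and in the deposited table (adjusted p = 0.172 and 0.174), to -0.48 with the wider 75th percentile (0.701) and to -0.15 with normexp (0.147).

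The other falls measured on all 6 arrays were smaller. AT1TU036960, starting at 10677328 in the left arm, had 29.1, 29.4 and 29.2 on rdr2 arrays, against 52.0, 57.2 and 49.0 on WT arrays (log2 fold change -0.85, SE 0.12, adjusted p = 0.00975), and another probe, above background on 1 rdr2 array, was called as well (-1.85, adjusted p = 0.0451). AT1TU096090, in the right arm between units starting at 28310043 and 28568367, had 41.5, 42.0 and 47.4 on rdr2 arrays, against 93.0, 80.3 and 66.0 on WT arrays (log2 fold change -0.86, adjusted p = 0.0274). A further probe of AT1TU096090 was called at -0.70 (adjusted p = 0.0410), and the third gave -0.24 (0.480). WT replicate 3 was the lowest WT array in both of these units, yet above every rdr2 array.

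AT1TU102500, at the end of the right arm, had 20.8, 19.3 and 27.3 on rdr2 arrays, against 41.3, 42.9 and 36.1 on WT arrays (log2 fold change -0.85, SE 0.18, adjusted p = 0.0337). Its other probes gave -0.71 (adjusted p = 0.0507) and -0.34 (0.426). The other 4 falls on probes above background on all 6 arrays lay outside the rule for naming and were chosen after their values were seen. AT1TU010560, in the left arm, starts at 3125306 and had 107, 96.6 and 106 on rdr2 arrays, against 148, 153 and 156 on WT arrays (log2 fold change -0.56, adjusted p = 0.0298). Log2 fold changes of AT1TU003170, AT1TU079940 and AT1TU088130 were -0.77, -0.66 and -0.47 (adjusted p = 0.0429, 0.0429 and 0.0444). Scaling to the 75th percentile of every probe turned AT1TU010560 and AT1TU088130 to 0.05 and 0.14, the only called arm units that changed sign under any of the 19 fits.

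Where a probe was above background on no rdr2 array, the fold is a bound against the lowest well-above-background signals of those arrays. AT1TU062080, between units starting at 18634172 and 18886181 in the right arm, had 1.24, 0.671 and 0.357 on rdr2 arrays, against 6.61, 5.91 and 4.54 on WT arrays. It was at least 2.71-fold lower (log2 fold change -3.08, SE 0.47, adjusted p = 0.0129). With normexp it stood at -0.18 (adjusted p = 0.155). The constant of 50 added there draws log2 fold changes of dim probes toward 0 by construction, here and in the dim falls below. Neither of its other probes was above background on enough arrays to be tested. Their log2 fold changes were -0.11 and 0.11, so the fall rests on 1 probe and was not seen on the others. AT1TU096400, starting at 28605171, was at least 1.72-fold lower (adjusted p = 0.0244), with 1.102, 0.570 and 0.679 on rdr2 arrays, against 4.86, 4.50 and 2.08 on WT arrays.

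In the other 10 of these 12 units the bound was small or absent. It lay between 1.02-fold and 1.44-fold in 8 of them. Among the named ones it was 1.39-fold for AT1TU097450, 1.38-fold for AT1TU001400, 1.17-fold for AT1TU075340, 1.13-fold for AT1TU066270, 1.12-fold for AT1TU001310 and AT1TU092020 and 1.02-fold for AT1TU064070. For AT1TU032060 and AT1TU078770 no bound can be given. Their mean WT signal lay below the mean of the lowest well-above-background signals of the rdr2 arrays. AT1TU066270, between units starting at 19982613 and 20226799, kept its call under random slide effects (adjusted p = 0.0351); it had 0.651, 0.640 and 0.414 on rdr2 arrays, against 2.18, 2.84 and 2.09 on WT arrays (log2 fold change -2.08, adjusted p = 0.00544). With normexp it stood at -0.19 (adjusted p = 0.0732) and with the wider 75th percentile at -1.46 (0.107). Its other probes were above background on no array.

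AT1TU075340, between units starting at 22591832 and 22766173 in the right arm, was called on 2 of its 3 tested probes. On its probe above background on all 6 arrays, signals were 7.57, 6.14 and 10.5 on rdr2 arrays, against 15.8, 16.6 and 14.2 on WT arrays (log2 fold change -0.98, adjusted p = 0.0416). The groups did not overlap there, and the third probe stood at -1.54 (adjusted p = 0.0562). With normexp, the probe with the smallest p stood at -0.01.

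Falls on probes above background on 1 rdr2 array included 3 named units. AT1TU029470 had 1.76, 1.36 and 3.75 on rdr2 arrays, against 8.71, 8.25 and 7.44 on WT arrays (log2 fold change -1.97, adjusted p = 0.0286). AT1TU089800 had 1.63, 1.69 and 2.00 on rdr2 arrays, against 9.46, 7.92 and 4.06 on WT arrays (log2 fold change -1.93, adjusted p = 0.0204). AT1TU023660 stood at -1.38 (adjusted p = 0.0446). Each was tested on 1 probe only. AT1TU099420, in the right arm and chosen after its values were seen, was the other fall to pass under random slide effects (adjusted p = 0.0337). It had 1.64, 1.51 and 1.41 on rdr2 arrays, against 3.92, 3.48 and 3.78 on WT arrays (log2 fold change -1.30, adjusted p = 0.00306), and its other tested probes gave -0.72 each (adjusted p = 0.0847 and 0.0728). Its call was lost, and its log2 fold change was -0.59, in the deposited table and with quantile normalisation (adjusted p = 0.357 and 0.356). With the wider 75th percentile it was -0.68 (0.609) and with normexp -0.06 (0.597).

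**Figure D4:**
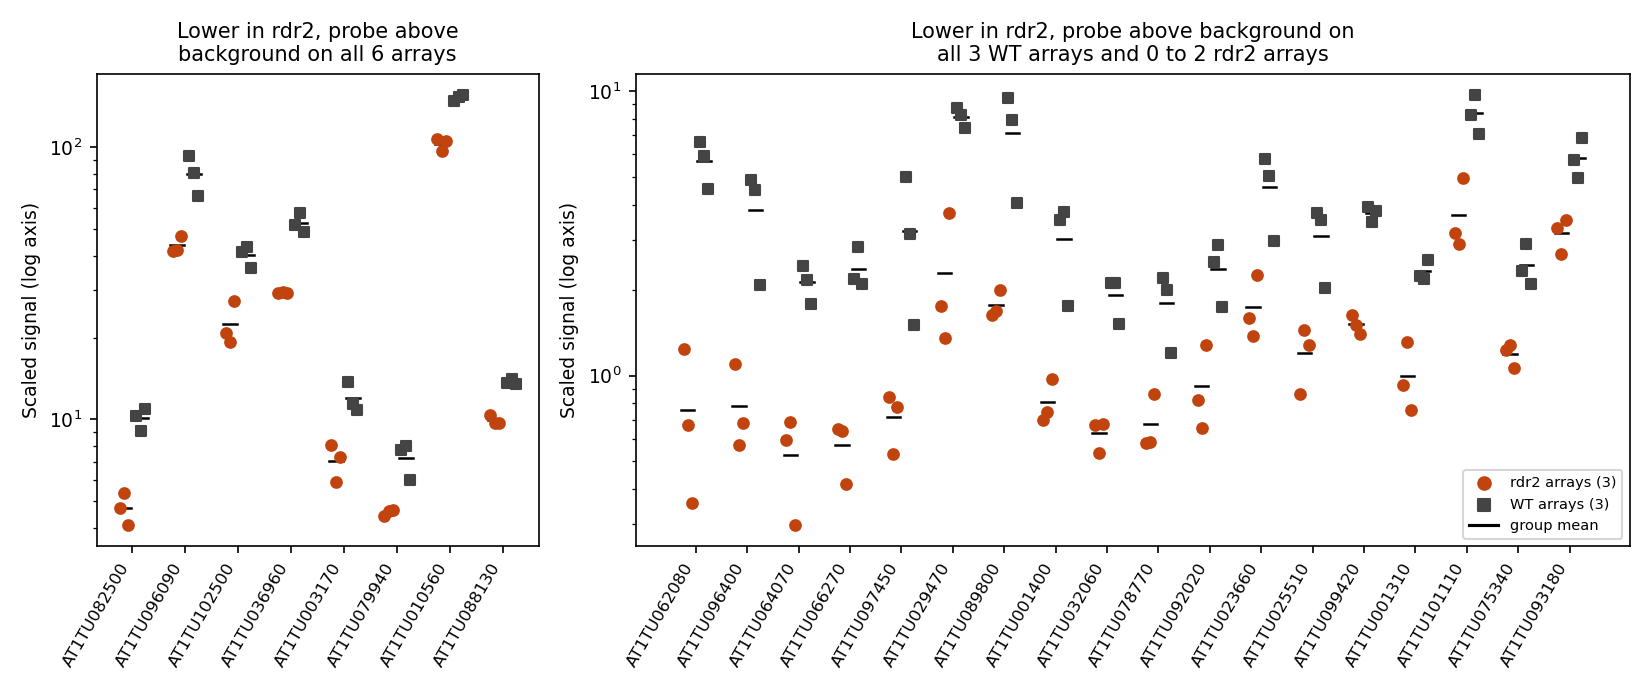
Scaled signal (log axis) of the 26 arm units called lower in rdr2, 1 probe a unit; round points are the 3 rdr2 arrays, squares the 3 WT arrays and lines the group means. The left panel holds the 8 units measured above background on all 6 arrays, with means 2.14-fold lower in rdr2 at most; the right panel holds the 18 whose rdr2 signals were partly or wholly not above background.

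Most falls lost their calls when replicate 1 or 2 of either group was left out. The part of the smaller number of arrays in this was not tested. Without rdr2 replicate 1, 5 of the 26 kept their calls (adjusted p of the others 0.0541 to 0.146), and without rdr2 replicate 2, 7 did (0.0594 to 0.147). Without WT replicate 1, 3 did (0.0522 to 0.154), and without WT replicate 2, 4 did (0.0589 to 0.180). AT1TU032060, AT1TU066270 and AT1TU099420 kept their calls under all 4 of these, but none of the 3 did with normexp, with the wider 75th percentile or with the arrays of a slide averaged. AT1TU032060 stood at -0.02 with normexp (adjusted p = 0.820) and also lost its call in the deposited table (0.0573) and under random slide effects (0.0565). Without rdr2 replicate 3, 22 kept them (the others 0.0543 to 0.0668), and without WT replicate 3 all 26 did. In both of these fits only the arrays of a shared slide remained in that group. Scaled to the 75th percentile of every probe, AT1TU062080 was the 1 fall of 26 still called, with quantile normalisation 9 were, with normexp 4, and 8 were in the deposited table.

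Probes of a unit often differed in size and sometimes in sign. Of 79 arm units with 2 or 3 tested probes, the median range of log2 fold changes across a unit's probes was 0.48 and the largest 2.31, in AT1TU025510, whose called probe gave -1.35 and whose other tested probe gave 0.95 (adjusted p = 0.0451 and 0.213). Of the 9 rises, 7 had 2 or 3 tested probes; in 5 of these 7 at least 2 were called, and in 5 all tested probes had 1 sign. Among the falls, 14 had 2 or 3 tested probes; in 4 of the 14 at least 2 were called, and in 11 all tested probes had 1 sign. No arm unit had probes called in opposite directions.

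**Figure D5:**
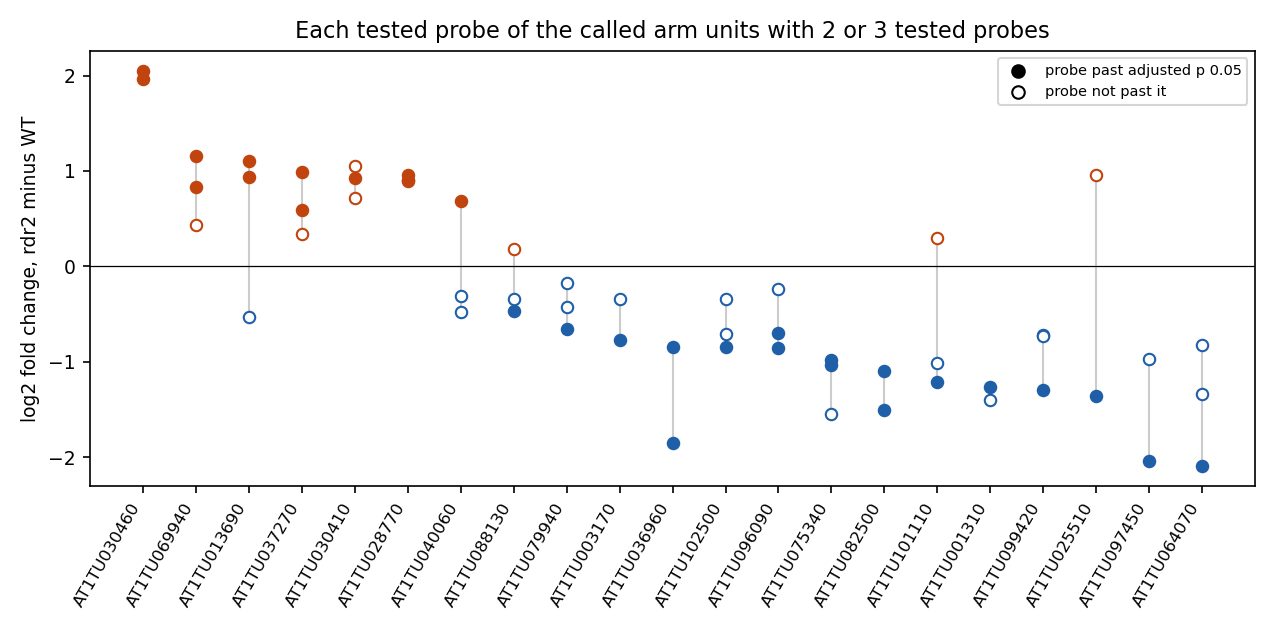
Log2 fold change (rdr2 minus WT) of each tested probe for the 21 called arm units with 2 or 3 tested probes; filled points passed adjusted p 0.05 and open points did not, orange marks values above 0 and blue those below, and grey lines join the probes of a unit. Probes of AT1TU030460 and AT1TU028770 lie close together, while those of AT1TU025510 lie 2.31 apart on opposite sides of 0.

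The 6 arm units with the highest mean scaled signal over the 6 arrays included 2 of the rises, AT1TU028770 and AT1TU037940. Signals of different probes do not rank transcripts, so these units are given as bright probes only. AT1TU022930, starting at 6655955, had 1375, 1397 and 752 on rdr2 arrays, against 742, 639 and 541 on WT arrays (log2 fold change 0.83, 95% interval 0.12 to 1.55, adjusted p = 0.113). Its rdr2 replicate 3 lay close to the WT arrays. AT1TU073080 had 986, 903 and 944 on rdr2 arrays, against 759, 723 and 727 on WT arrays (0.36, interval 0.09 to 0.63, adjusted p = 0.0865). AT1TU077470 spread widely in both groups, with 772, 792 and 380 on rdr2 arrays, against 284, 558 and 562 on WT arrays (0.46, interval -0.56 to 1.48, adjusted p = 0.458). AT1TU088310 had 357, 309 and 466 on rdr2 arrays, against 544, 493 and 638 on WT arrays (-0.58, interval -1.07 to -0.08, adjusted p = 0.112). None of these 4 passed the adjusted threshold, and of the 4 the groups overlapped in AT1TU077470 alone.

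Just outside the 3 Mb limit, and so in the arms, the nearest tested units were AT1TU041230 on the left, 3.21 Mb from the 15 Mb point, with a log2 fold change of 0.30, and AT1TU059480 on the right, 3.05 Mb from it, with -0.59. Just inside it lay AT1TU042160 (2.96 Mb, -1.18) and AT1TU059040 (2.93 Mb, -0.96). None of the 4 was called. All 4 were placed by unit number, and the gaps between known starts on the chromosome reached 1.15 Mb. AT1TU041230 lies between units starting at 11549722 and 11813291, both outside the limit. AT1TU042160 lies between starts at 11927898 and 12165367, and AT1TU059480 and AT1TU059040 between starts at 17684411 and 18290218. In these pairs the starts fall on either side of the limit, so the side of these units is not certain.

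Units with a start in the annotation were printed as a separate probe set from those without one. Of the 211 arm units with a start, 54 were tested (25.6%), 2 rose and 8 fell. Of the 707 without, 206 were tested (29.1%), 7 rose and 18 fell. For comparison, 5.85% of all tested transcripts of the array were called higher and 10.7% lower. A difference between units with and without a start was not tested. The sequences of the probes are not used here.

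Among 19 listed genes of RNA-directed DNA methylation, 4 were on the array and tested, 1 rose and 1, RDR2, fell; their median log2 fold change was -0.35, beside -0.26 for all tested probes. NRPD1, the largest subunit of RNA polymerase IV, had 329, 321 and 317 on rdr2 arrays, against 158, 160 and 160 on WT arrays (log2 fold change 1.02, adjusted p = 0.00414). The corresponding subunit of RNA polymerase V, NRPE1, stood at -0.32 (adjusted p = 0.142) on the probe with the smallest p, but its 3 tested probes ran between -0.32 and 0.69, and none was called. DCL3 stood at -0.38 (adjusted p = 0.105).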

How the data were processed

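Members and lists were chosen with earlier results of these data known. Per the file headers, the authors scanned each array in 1 colour and read its spots with Feature Extraction from Agilent, version 10.5.1.1 for 5 arrays and 10.7.3.1 for rdr2 replicate 3. The deposited processed signal is a background-subtracted, spatially detrended intensity. The deposited value table holds log2 values. Recomputation from the processed signals, with values under 1 set to 1 and quantile normalization, gave at least 99.86% of each array's values within 0.1. This table served as an alternative.

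Each array's processed signal was divided by its own 75th percentile, taken over the 2369 probes that all 6 arrays measured well above background (155 to 285 on rdr2 and 305 to 371 on WT arrays), and then put on the log2 scale. limma 3.58.1 in R 4.3.3 was fitted by group alone (lmFit, eBayes) to 3345 probes, with adjustment over all of them. The procedure was tested on simulated data. The simulated arrays varied independently of each other, so they cannot show how the fit behaves with the shared slides of these data. The number of arrays limits precision. Normexp used the median spot signal, since the scanner files used here hold no mean. It added 50 to every corrected intensity before the log2 scale and quantile normalization. That constant shrinks log2 fold changes of dim probes by construction, so small normexp values there do not show that a difference is absent.

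Named units were, in the arms: the 12 largest calls in each direction with no overlap, units with 2 or more called probes, neighbouring called units, the 6 brightest, those at the 3 Mb limit and the outermost called. Others were chosen after their values were seen. Figures used matplotlib 3.10.9.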

Additional observations from a re-analysis of the deposited data

How the results depend on the processing

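Counts of called arm units in rdr2 (9 higher, 26 lower) moved with most choices. The counts were 5 higher and 3 lower with the 75th percentile over all probes (125 and 36 for all tested probes, against 171 and 284), 10 and 16 with median scaling (186 probes lower), 7 and 9 with quantile normalization (146 probes lower), 7 and 9 in the deposited table (138 lower) and 17 and 8 with normexp. Testing only probes above background on all 6 arrays gave 13 and 14, probes above it on at least 1 array 1 and 1 (45 and 34 probes), and no filter 1 and 0 (39 and 20), where more dim probes entered the adjustment; without a filter, AT1TU030460 was the unit called, and 297 were higher and 79 lower at an unadjusted p under 0.05. Slide as a random block (within-slide correlation 0.773) gave 1 and 2 (57 and 55 probes), and arrays of a slide averaged 0 and 0 (29 and 16), where limma put 8 units higher and 24 lower at an unadjusted p under 0.05. A threshold of 0.01 left 2 and 4 (71 and 78). The mean over a unit's tested probes gave 6 and 16, arms beginning 2 Mb from the centre 15 and 31, and units with a start alone 2 and 8. Leaving out 1 array at a time gave 2 to 22 units higher, 3 to 102 lower, 77 to 277 probes higher and 75 to 770 lower. The largest of these unit counts came without a replicate 3, where only the arrays of a shared slide remained in its group. Without the 2 dimmest arrays, an alternative chosen after seeing the data in which the lone rdr2 array is taken to vary like the WT arrays, 0 and 3 units (26 and 37 probes) passed, with 12 and 41 at an unadjusted p under 0.05. Giving uneven spots no weight or beginning the arms 4 Mb out left the counts within 1.5 times. Deviations of same-numbered arrays correlated at -0.12, -0.12 and -0.15, and those of differently numbered arrays at -0.15 to 0.18. These values cannot decide whether replicate numbers pair the samples, since replicates 1 and 2 share a slide in both groups. With replicate as a block the counts were 1 and 4 (58 and 71 probes). Among named units that were not called, AT1TU059480 turned to 0.026 with the 75th percentile over all probes, 0.091 in the deposited table and 0.092 with quantile normalization, AT1TU088310 to 0.034 with that percentile and AT1TU077470 to -0.23 without the 2 dimmest arrays. Beyond what each alternative's construction shows, the cause was not tested. Dim signal left 658 of the 918 units with no probe bright enough to test.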

Other observations

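On rdr2 arrays and on no WT array, 6 arm units were detected, each on a single rdr2 array. They were AT1TU021690, AT1TU038700, AT1TU039160, AT1TU086670, AT1TU094380 and AT1TU099000. AT1TU038700 had 0.955, 6.48 and 0.633 on rdr2 arrays, against 2.07, 1.61 and 0.366 on WT arrays, and AT1TU099000 had 4.86, 0.712 and 0.561 on rdr2 arrays, against 0.488, 0.353 and 0.253 on WT arrays. In both, the highest value stood alone among the 3 rdr2 arrays. In the opposite direction, 334 arm units were detected on at least 1 WT array and on no rdr2 array, 180 of them on 2 or 3 WT arrays.

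Arrays of a shared slide resembled each other more than the third array of their group. Over the tested arm probes, the median absolute log2 difference between replicates 1 and 2 was 0.22 in rdr2 and 0.19 in WT. Replicate 3 differed from the mean of replicates 1 and 2 by a median of 0.49 in rdr2 and 0.50 in WT.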
